A study of Rattus norvegicus with 138 samples.

Results

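The genes described here encode subunits of voltage-gated calcium channels, the pores that let calcium into neurons when the membrane depolarizes. They were chosen by name, as the rows for Cacna1a, Cacna1b, Cacna1c, Cacna1d, Cacna1e, Cacna1g, Cacna1h, Cacna1i, Cacna2d1 and Cacna2d2, and all 10 were found among the 32883 genes listed for each region. RNA was sequenced in 46 female rats from 3 punched regions, with 1 library per region and rat: the solitary tract nucleus (NTS) and the caudal and rostral parts of the ventrolateral medulla (CVLM and RVLM). The control strain was the normotensive Wistar-Kyoto rat (WKY, substrain WKY/NHsd), with 5 rats aged 8 wk, 4 aged 10 wk and 3 each aged 12, 16 and 24 wk. The spontaneously hypertensive rat (SHR, substrain SHR/NHsd), an inbred model that becomes hypertensive with age, was sampled with 5 rats each at the ages of 8 and 10 wk and 6 each at the later ages. No rat was treated or genetically altered, every rat was female, and the punches of 1 mm from both sides of a brainstem were pooled into a single sample, so that each sample holds all cell types of the punched tissue.

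The pore of a voltage-gated calcium channel is the α1 subunit, and the gene of that subunit sets the class of the current. High-voltage-activated channels comprise the L type (Cacna1c, Cacna1d), which shapes pacemaking and calcium-dependent transcription, and the P/Q, N and R types (Cacna1a, Cacna1b, Cacna1e), which drive transmitter release from nerve terminals, whereas the T type (Cacna1g, Cacna1h, Cacna1i) opens near the resting potential and supports rebound and burst firing. The α2δ subunits (Cacna2d1, Cacna2d2) are extracellular partners that raise the surface number of the high-voltage-activated channels and bind gabapentinoid drugs. In the medulla these channels set the firing and the transmitter output of the neurons that relay the baroreflex from the NTS through the CVLM to the sympathetic premotor neurons of the RVLM.

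The libraries held between 5904570 and 17889406 counts, with a median of 10143018. Levels are given as CPM, counts scaled to a common library size, on a scale shared by all libraries. No transcript lengths were at hand, so levels are compared between samples of 1 gene and never between genes. Tested genes were those whose highest regularized log2 level reached 3.5 in a region, which left 13793, 13408 and 13411 genes in the NTS, CVLM and RVLM. Of the 10 subunits, 9 passed in every region, and Cacna1i passed in none. All libraries of a rat carried the same closing number in their names, 1 or 2, whose meaning is not given in the sources used here. The number 2 marked all rats of 10 wk, 3 of the 5 WKY rats of 8 wk (replicates 3, 4 and 5) and 1 SHR each at 12 and 24 wk, but no SHR of 8 wk. Of the CVLM libraries, 2 (replicate 5 of each strain at 8 wk) had an age label of 10 wk and were placed by their titles. Their library names also read 8 wk. Dbh, the enzyme that makes noradrenaline, had medians of 67.7, 85.0 and 9.55 CPM in the NTS, CVLM and RVLM. Pnmt, which marks the adrenergic cells that define the RVLM pressor area, had medians of 3.60, 41.8 and 19.6 CPM in the same order, so that it was higher in the libraries labelled CVLM than in those labelled RVLM. Motor and cholinergic neuron markers, summed over 6 genes, had medians of 436, 150 and 1788 CPM in the NTS, CVLM and RVLM, and Mnx1 of that list was at a median of 0 in all of them.

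Promoter sequences were matched for 7 of the 10 subunits in RefSeq (build GRCr8), and those of Cacna2d1 and Cacna1b are shown because these subunits had like profiles over regions and were the ones called at 8 wk in the NTS. Each line gives the 250 bases before the annotated start, 5′ to 3′ along the gene's strand, with every GC box (GGGCGG or its reverse complement CCGCCC) in capitals.
Cacna2d1, chr4:20329863-20330112, minus strand: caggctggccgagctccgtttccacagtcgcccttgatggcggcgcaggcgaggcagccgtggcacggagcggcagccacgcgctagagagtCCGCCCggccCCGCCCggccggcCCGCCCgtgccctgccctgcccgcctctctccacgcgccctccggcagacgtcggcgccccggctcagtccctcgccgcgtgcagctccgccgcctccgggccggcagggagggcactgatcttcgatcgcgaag
Cacna1b, chr3:27944286-27944535, minus strand: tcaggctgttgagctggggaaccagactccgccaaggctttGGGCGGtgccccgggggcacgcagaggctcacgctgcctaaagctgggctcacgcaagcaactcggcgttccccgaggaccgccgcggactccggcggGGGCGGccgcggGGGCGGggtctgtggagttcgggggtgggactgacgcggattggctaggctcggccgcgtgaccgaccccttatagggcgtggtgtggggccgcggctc
The Cacna2d1 window held 3 GC boxes, and the windows of its 2 other annotated starts held 3 and 7. The Cacna1b window also held 3, and those of Cacna1a, Cacna2d2 and Cacna1d held 1, 2 and 9, whereas those of Cacna1c and Cacna1e held 0. Among the 33469 promoters listed, 30.5% held at least 1 GC box on either strand. None of the 9 windows of the members held TATAAA, TGACGTCA or CACGTG, which stood in 12.9%, 1.6% and 5.6% of all promoters. The GC content was 76.8% in the Cacna2d1 window shown and 72.0% in that of Cacna1b, compared with a median of 51.2% over all promoters. These matches describe the letters only.

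More calls of the calcium channel subunits fell between regions than between strains, as was the case over all genes. Regions were compared within the same rats (edgeR quasi-likelihood test with the rat as a block, over 14043 genes). In the WKY rats 7 of the 9 tested subunits were higher in the NTS than in the CVLM and 0 lower. Of all genes tested, 52.5% were called there at an adjusted p below 0.05. This share and those that follow count both directions. In the SHRs 7 were higher and 0 lower, beside 55.9% of all genes. In the NTS against the RVLM, 5 were higher and 2 lower in the WKY rats (64.2% of all genes called), and 6 were higher and 1 lower in the SHRs (64.4%). In the CVLM against the RVLM, 3 were higher and 3 lower in the WKY rats (41.1%), and 4 were higher and 4 lower in the SHRs (44.3%). The median log2 fold change of the 9 subunits was 0.77 in WKY rats and 0.60 in SHRs for the NTS over the CVLM, whereas the medians of all genes were 0.00 and 0.01. For the NTS over the RVLM the subunit medians were 0.58 and 0.54, beside -0.02 and 0.00 over all genes, and for the CVLM over the RVLM they were 0.02 and 0.16, beside -0.01 and 0.00. With whole punches as samples, fewer cells of a type and less RNA per cell cannot be told apart. Oligodendrocyte markers, summed over 8 genes, had medians of 26809, 52394 and 44825 CPM in the NTS, CVLM and RVLM, and neuron markers, summed over 10 genes, had medians of 9503, 13469 and 27461 CPM. Their part in the regional differences was not tested.

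**Figure D1:**
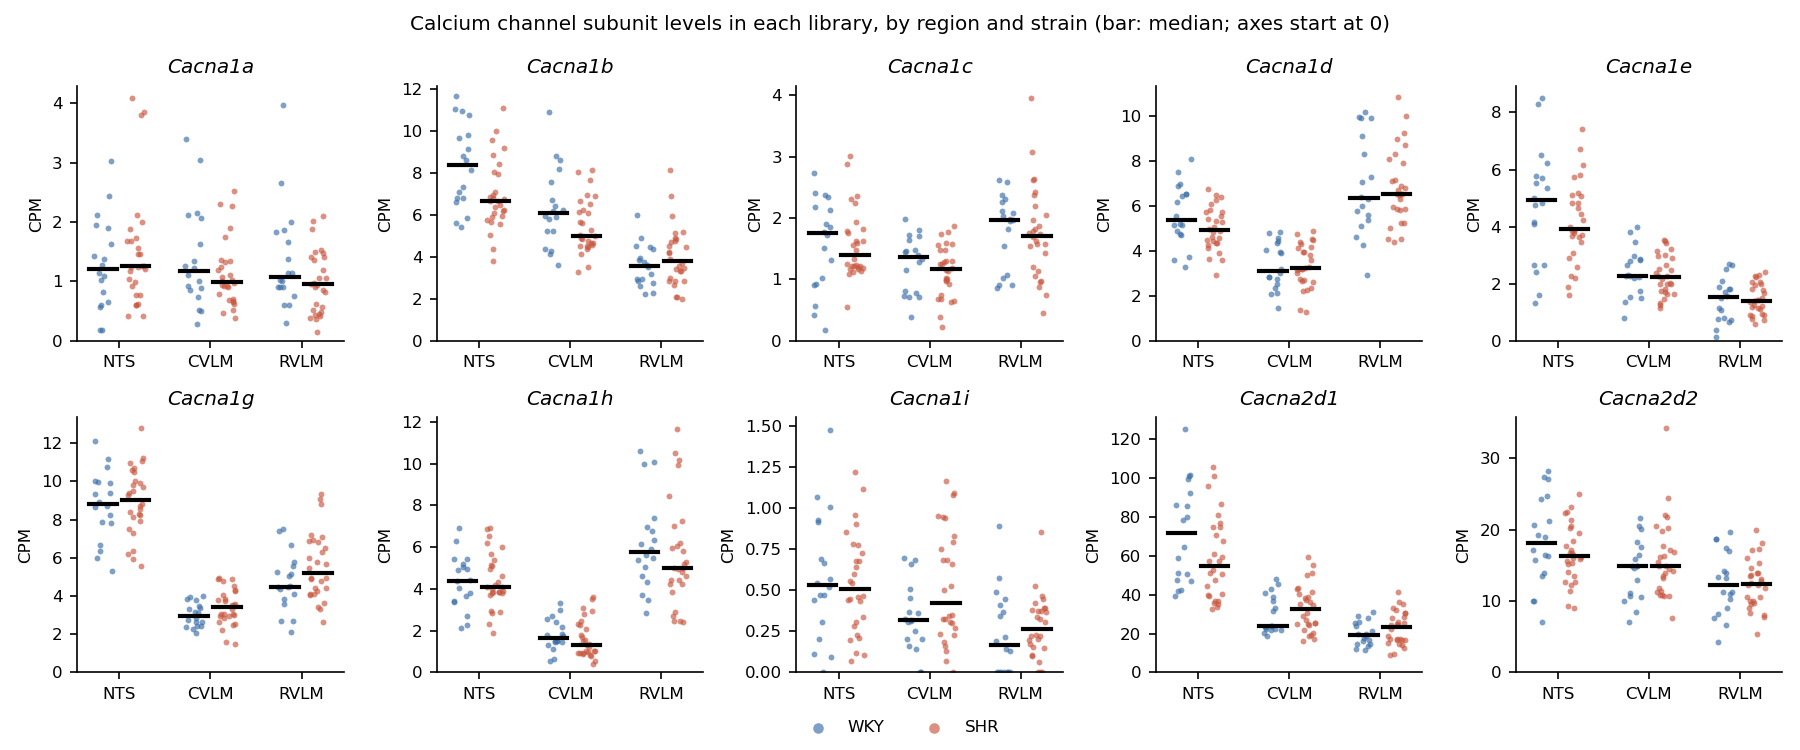
Level of each calcium channel subunit (CPM, axes from 0) in every library, by region and strain, with a point per library and a bar at the median of the 18 WKY rats or 28 SHRs. Cacna2d1, Cacna1e, Cacna1b and Cacna1g were highest in the NTS, whereas Cacna1d and Cacna1h had their lowest medians in the CVLM.

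Of the α2δ subunits, Cacna2d1 fell stepwise from the NTS to the CVLM and RVLM. In the NTS of WKY rats its level ran from 39.1 through a median of 71.5 to 125 CPM, in the CVLM from 18.7 through 24.0 to 48.2 CPM, and in the RVLM from 11.4 through 19.1 to 31.0 CPM. In SHRs it ran from 32.8 through 55.0 to 106 CPM in the NTS, from 16.0 through 32.6 to 59.4 CPM in the CVLM, and from 8.86 through 23.2 to 41.5 CPM in the RVLM. The NTS ranges overlapped those of the CVLM over the whole strain, yet within rats the NTS exceeded the CVLM in 18 of 18 WKY rats and 27 of 28 SHRs, and the RVLM in every rat of both strains. The log2 fold change of the NTS over the RVLM was 1.82 in WKY rats (SE 0.12, adjusted p = 1.33e-25) and 1.35 in SHRs (SE 0.09, adjusted p = 6.98e-24). Cacna2d2 had a shallower gradient. Its medians were 18.1, 14.9 and 12.3 CPM in the NTS, CVLM and RVLM of WKY rats and 16.3, 14.9 and 12.4 CPM in those of SHRs, with overlapping ranges. The NTS level was above the RVLM level by 0.58 (SE 0.13, adjusted p = 5.82e-05) and 0.42 (SE 0.10, adjusted p = 0.000231) on the log2 scale. Over the CVLM the NTS excess of Cacna2d2 passed the test in WKY rats (0.35, adjusted p = 0.0174) and not in SHRs (0.07, adjusted p = 0.563), and the WKY call was lost without the rats of 8 and 10 wk (0.29, adjusted p = 0.191).

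Among the pores that serve transmitter release, Cacna1b (N type) and Cacna1e (R type) followed the same order of regions. Cacna1b in WKY rats ran from 5.44 through a median of 8.41 to 11.7 CPM in the NTS, from 3.61 through 6.09 to 10.9 CPM in the CVLM, and from 2.25 through 3.59 to 6.00 CPM in the RVLM. Every rat had more Cacna1b in the NTS than in the RVLM, by 1.21 in WKY rats (SE 0.12, adjusted p = 2.97e-16) and 0.81 in SHRs (SE 0.09, adjusted p = 1.07e-12) on the log2 scale. Its excess in the NTS over the CVLM was 0.41 and 0.34 (adjusted p = 0.0015 and 0.000983), held by 13 of 18 WKY rats and 22 of 28 SHRs. Without the rats of 8 and 10 wk this excess was 0.25 in WKY rats and no longer passed (adjusted p = 0.221). Cacna1e in WKY rats had medians of 4.92, 2.29 and 1.54 CPM in the NTS, CVLM and RVLM, and in SHRs 3.91, 2.23 and 1.41 CPM. Its NTS level exceeded that of the RVLM by 1.69 in WKY rats (SE 0.17, adjusted p = 5.12e-15) and by 1.48 in SHRs (SE 0.14, adjusted p = 5.80e-17), in 17 of 18 and 28 of 28 rats. For Cacna1a, the pore of the P/Q type, the median count was 14, 11 and 10.5 reads in the NTS, CVLM and RVLM, and 1 of its 6 regional comparisons passed the test. That was the NTS over the RVLM in SHRs, at 0.54 (SE 0.20, adjusted p = 0.0168), whereas the WKY value was -0.12 (SE 0.24, adjusted p = 0.695). The Cacna1a call was lost without the rats of 8 and 10 wk (0.32, adjusted p = 0.227).

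The L-type pore Cacna1d and the T-type pore Cacna1h were lowest in the CVLM, and their highest medians were in the RVLM. Cacna1d ran from 1.46 through a median of 3.09 to 4.83 CPM in the CVLM of WKY rats, from 3.30 through 5.38 to 8.08 CPM in the NTS, and from 2.92 through 6.34 to 10.2 CPM in the RVLM. The CVLM exceeded the RVLM in 0 of 18 WKY rats and 1 of 28 SHRs, with log2 fold changes of -1.04 in both strains (SE 0.12 and 0.10, adjusted p = 3.29e-12 and 1.39e-16). Its NTS level was below that of the RVLM by a smaller step, -0.27 in WKY rats (adjusted p = 0.0386) and -0.44 in SHRs (adjusted p = 3.02e-05), and the WKY value lost its call without the low-count filter (adjusted p = 0.0676), without the rats whose age labels conflict (0.0723) and without the rats of 8 and 10 wk (0.311). Cacna1h had medians of 4.39, 1.64 and 5.77 CPM in the NTS, CVLM and RVLM of WKY rats and 4.09, 1.32 and 5.02 CPM in those of SHRs. No rat of either strain had more Cacna1h in the CVLM than in the RVLM, and the log2 fold change was -1.78 in WKY rats (SE 0.19, adjusted p = 2.83e-14) and -1.80 in SHRs (SE 0.15, adjusted p = 8.06e-19). Between NTS and RVLM, Cacna1h differed by -0.49 in WKY rats (SE 0.17, adjusted p = 0.00977), a call lost without the rats of 8 and 10 wk (-0.35, adjusted p = 0.202), and by -0.30 in SHRs, which did not pass (adjusted p = 0.0537). Motor and cholinergic markers were at their highest summed level in the RVLM, from 680 to 2628 CPM, and at their lowest in the CVLM, from 60.8 to 261 CPM, the same order as that of Cacna1d and Cacna1h, and their part in it was not tested. The L-type pore Cacna1c had counts with medians of 16, 13 and 16.5 reads. Its log2 fold change of the CVLM over the RVLM was -0.59 in SHRs (SE 0.16, adjusted p = 0.00195), whereas in WKY rats the value of -0.47 missed the threshold (SE 0.20, adjusted p = 0.0501).

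**Figure D2:**
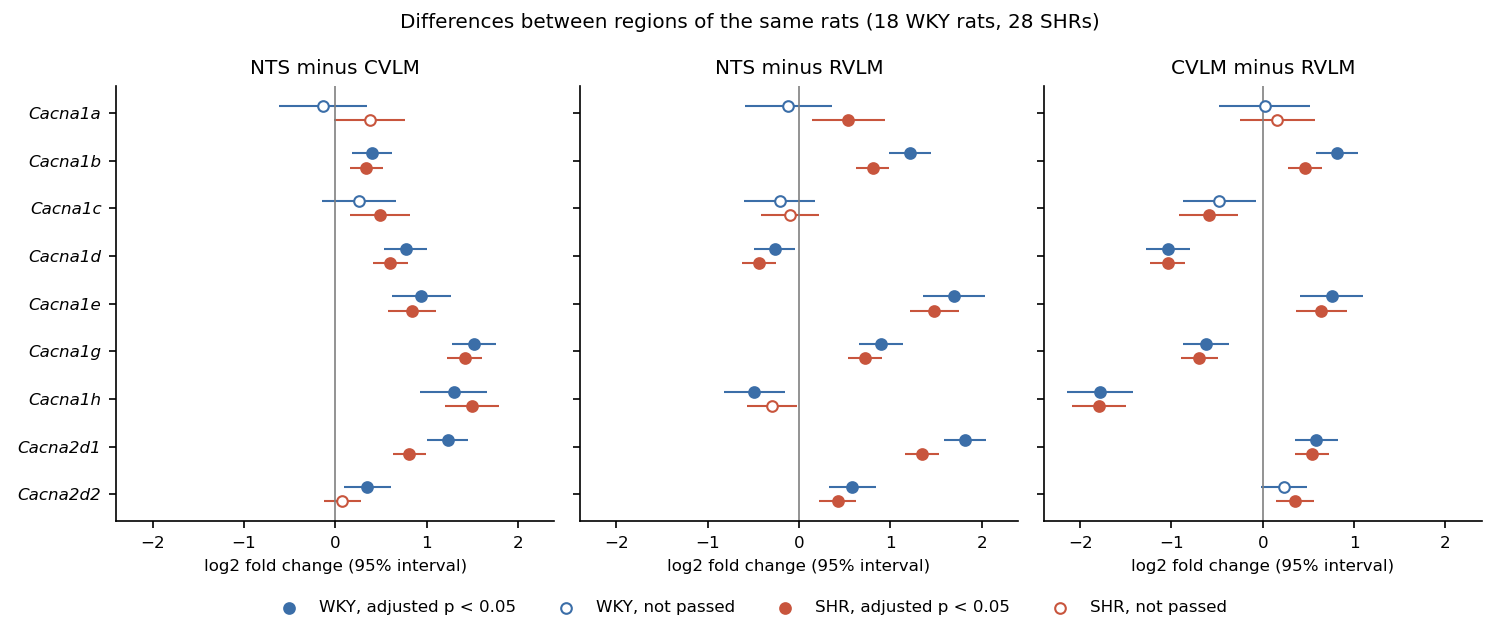
Log2 fold changes between regions of the same rats for the 9 tested subunits, with 95% intervals, in WKY rats and SHRs (filled points passed at an adjusted p below 0.05). Cacna1g was higher in the NTS than in both other regions, and the CVLM to RVLM panel shows Cacna1d, Cacna1g and Cacna1h to the left of 0 in both strains.

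The T-type pores did not share 1 profile. Cacna1g was highest in the NTS, intermediate in the RVLM and lowest in the CVLM, with ranges in WKY rats of 5.30 to 12.1 CPM, 2.09 to 7.52 CPM and 2.04 to 4.01 CPM in that order. The NTS and CVLM ranges of WKY rats did not overlap, and neither did those of SHRs, at 5.57 to 12.8 CPM and 1.50 to 4.95 CPM. The log2 fold change of the NTS over the CVLM was 1.52 in WKY rats (SE 0.12, adjusted p = 2.21e-19) and 1.42 in SHRs (SE 0.10, adjusted p = 2.21e-23), in every rat. Over the RVLM it was 0.90 and 0.72 (adjusted p = 2.69e-10 and 1.73e-10). Cacna1i, the remaining T-type pore, had medians of 6.5, 4 and 2.5 reads in the NTS, CVLM and RVLM and highest counts of 19, 13 and 10 reads, too few for the test.

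Of the SHR minus WKY contrasts of these regional differences, 0 of 9 subunits passed for any pair of regions (edgeR), while 0.328% of all genes passed for NTS against CVLM, 1.93% for NTS against RVLM and 0.385% for CVLM against RVLM. At an unadjusted p below 0.05 the numbers of subunits were 1, 3 and 1, and the share of all genes at that threshold is not given here. The smallest adjusted p was that of Cacna2d1, whose excess in the NTS over the RVLM was smaller in SHRs by a log2 difference of -0.47 (SE 0.15, adjusted p = 0.0779). The same contrast was -0.41 for Cacna1b (SE 0.15, adjusted p = 0.146) and 0.65 for Cacna1a (SE 0.32, adjusted p = 0.339). No strain difference in the regional profile of a subunit was detectable with these rats and counts.

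The strain comparison at each age asked whether the subunits differ before hypertension, at its onset or once it is established. Over the 3 regions and 5 ages, 3 of 135 values passed the test, all at 8 wk, an age at which SHRs are held to be prehypertensive. In the NTS 2 of 45 values passed, in the RVLM 1 of 45 and in the CVLM 0 of 45. At an unadjusted p below 0.05 the count was 9 of 135 values, 2 of them in the CVLM. The share of all genes at the unadjusted threshold is not given here or for later unadjusted counts. Such counts are therefore not shown to be unusual. At 8 wk, 2, 0 and 1 of 9 subunits were called in the NTS, CVLM and RVLM, where 5.79%, 7.64% and 9.78% of all genes were. From 10 wk on the number of subunits called was 0 of 9 at each age, by edgeR, beside 4.44%, 3.10%, 1.73% and 2.46% of all genes in the NTS, ordered by age. The shares of all genes were 3.18%, 2.62%, 2.27% and 7.13% in the CVLM and 2.30%, 1.70%, 1.65% and 2.24% in the RVLM.

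In the NTS at 8 wk Cacna2d1 stood at 39.1, 86.0, 125, 99.8 and 64.6 CPM in WKY rats 1 to 5 and at 32.8, 35.8, 39.1, 51.2 and 40.3 CPM in SHRs 1 to 5. The groups overlapped through WKY rat 1, which lay among the SHRs, while the other 4 WKY rats were above every SHR. The log2 fold change of SHR against WKY was -1.10 (SE 0.27, adjusted p = 0.00908, edgeR). At 10 wk the values were 78.5, 80.1, 92.3 and 101 CPM in WKY rats and 59.3, 95.9, 101, 106 and 86.9 CPM in SHRs, and the log2 fold change was 0.07 (SE 0.28, adjusted p = 0.936). From 12 wk on the groups overlapped, with log2 fold changes of -0.09, -0.21 and 0.13 in order of age. Across all NTS libraries, those of number 2 had a Cacna2d1 median of 89.6 CPM (59.3 to 125, n = 14) and those of number 1 a median of 49.0 CPM (32.8 to 101, n = 32). In the CVLM the medians were 43.1 and 24.6 CPM for numbers 2 and 1, and in the RVLM 26.6 and 17.1 CPM. With the library number as a term the 8 wk difference in the NTS was -0.70 (adjusted p = 0.283). When the number 2 libraries outside 10 wk were left out, which kept 2 WKY rats and 5 SHRs at 8 wk, it was -0.66 (adjusted p = 0.400). Without WKY rat 3 it was -0.89 (adjusted p = 0.0640), and with 8 wk fitted alone -1.06 (adjusted p = 0.0670). Since the number 2 covers all rats of 10 wk, number and age cannot be told apart at that age.

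Cacna1b was lower in the NTS of SHRs at 8 wk as well. It stood at 8.65, 8.81, 11.1, 11.0 and 6.83 CPM in WKY rats 1 to 5 and at 6.86, 6.83, 5.69, 5.98 and 3.82 CPM in SHRs 1 to 5. WKY rat 5 was level with the higher SHRs and the other 4 WKY rats were above all of them. The log2 fold change was -0.71 (SE 0.21, adjusted p = 0.0348), and at the later ages it lay between -0.16 and -0.04, with no call. Number 2 libraries of the NTS had a Cacna1b median of 9.63 CPM and number 1 libraries 6.57 CPM. With the number as a term the 8 wk value was -0.44 (adjusted p = 0.433), and without the number 2 libraries outside 10 wk it was -0.58 (adjusted p = 0.294). The call was also lost with 8 wk fitted alone (adjusted p = 0.131), with no filter on low counts (0.0675), and without WKY rat 3 (0.122) or 4 (0.111) or SHR 1 (0.0541), 3 (0.0980), 4 (0.0579) or 5 (0.108). All 9 subunits had a negative log2 fold change in the NTS at 8 wk, from -1.10 to -0.26, with a median of -0.43 beside -0.03 for all genes. The 7 that did not pass had adjusted p-values of 0.241 to 0.469. All 9 values come from the same libraries, and the share of all genes with a negative value is not given here. Of these 7, Cacna1a and Cacna1c had higher medians in number 2 libraries of the NTS. Cacna1d, Cacna1e, Cacna1g, Cacna1h and Cacna2d2 had lower ones. The part of the library number in their signs was not tested.

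**Figure D3:**
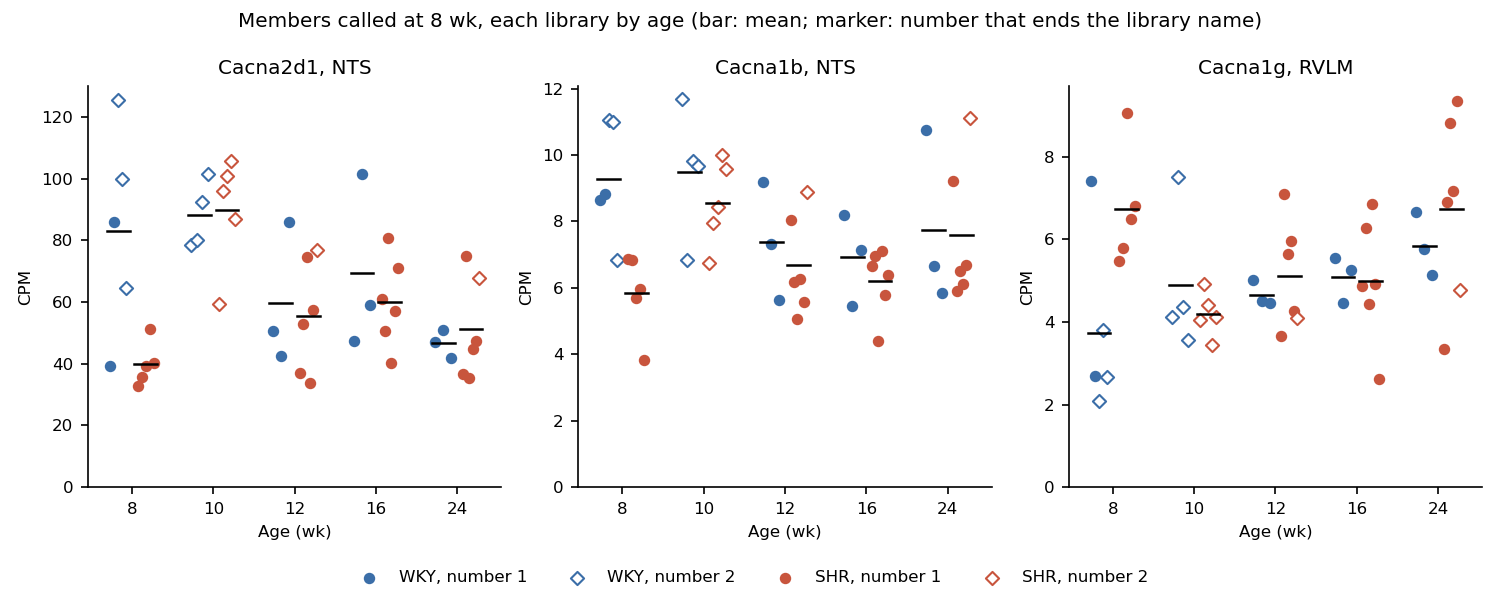
Level (CPM, axes from 0) of Cacna2d1 and Cacna1b in the NTS and of Cacna1g in the RVLM in each library by age and strain, with bars at group means and the marker giving the number that ends the library name. At 8 wk the SHRs (39.9 CPM on average for Cacna2d1) carried number 1 alone, while 3 of the 5 WKY rats carried number 2.

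In the RVLM at 8 wk Cacna1g was higher in SHRs. It stood at 7.42, 2.68, 2.09, 3.82 and 2.66 CPM in WKY rats 1 to 5 and at 5.49, 5.79, 9.06, 6.50 and 6.81 CPM in SHRs 1 to 5. WKY rat 1 was above all SHRs but 1, and the other 4 WKY rats were below every SHR. The log2 fold change was 0.84 (SE 0.27, adjusted p = 0.0404). At the later ages in turn it was -0.22, 0.14, -0.02 and 0.21, with no call. In the RVLM the Cacna1g median was 4.11 CPM in number 2 libraries and 5.61 CPM in number 1 libraries. The 8 wk value was 0.52 with the number as a term (adjusted p = 0.376) and 0.39 without the number 2 libraries outside 10 wk (adjusted p = 0.790). It lost the call with the replicate block (0.94, adjusted p = 0.0757), with 8 wk fitted alone (adjusted p = 0.191) and with no filter on low counts (0.0628). It was also lost without WKY rat 2 (0.0826), 3 (0.137), 4 (0.0664) or 5 (0.0860), or without SHR 2 (0.0558), 3 (0.113), 4 (0.0552) or 5 (0.0721). Without WKY rat 1 the log2 fold change was 1.24 (adjusted p = 0.00131).

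Of the tissue markers in the same libraries at 8 wk, some lists differed between the strains and others overlapped. Of the neuron markers 0 of 10 were called in the NTS and in the RVLM. In the NTS the summed noradrenergic and adrenergic markers, 6 genes, ran from 232 to 313 CPM in WKY rats and from 134 to 230 CPM in SHRs, without overlap, and 2 of their 5 tested genes were called lower. The motor and cholinergic markers there ran from 196 to 562 CPM in WKY rats and from 181 to 238 CPM in SHRs, with 1 of 5 tested genes lower. Choroid plexus and ependyma markers reached 1774 CPM in 1 of the WKY libraries and at most 6.47 CPM in the SHRs, with medians of 7.95 and 4.14 CPM. In the RVLM astrocyte markers, 6 genes, ran from 1873 to 2592 CPM in WKY rats and from 2793 to 4018 CPM in SHRs, with 2 of 6 called higher. GABA and glycine neuron markers, 4 genes, ran there from 121 to 257 CPM in WKY rats and from 178 to 410 CPM in SHRs, with 0 of 4 called. Vessel markers in the RVLM ran from 180 to 281 CPM in WKY rats and from 248 to 284 CPM in SHRs, with 2 of 6 tested genes higher. In the NTS 1 of 6 tested vessel genes was higher, and in the RVLM 1 of 8 oligodendrocyte genes was lower. Of all genes, 5.79% were called in the NTS and 9.78% in the RVLM at 8 wk. The part of these cell types in the 3 subunit calls was not tested.

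**Figure D4:**
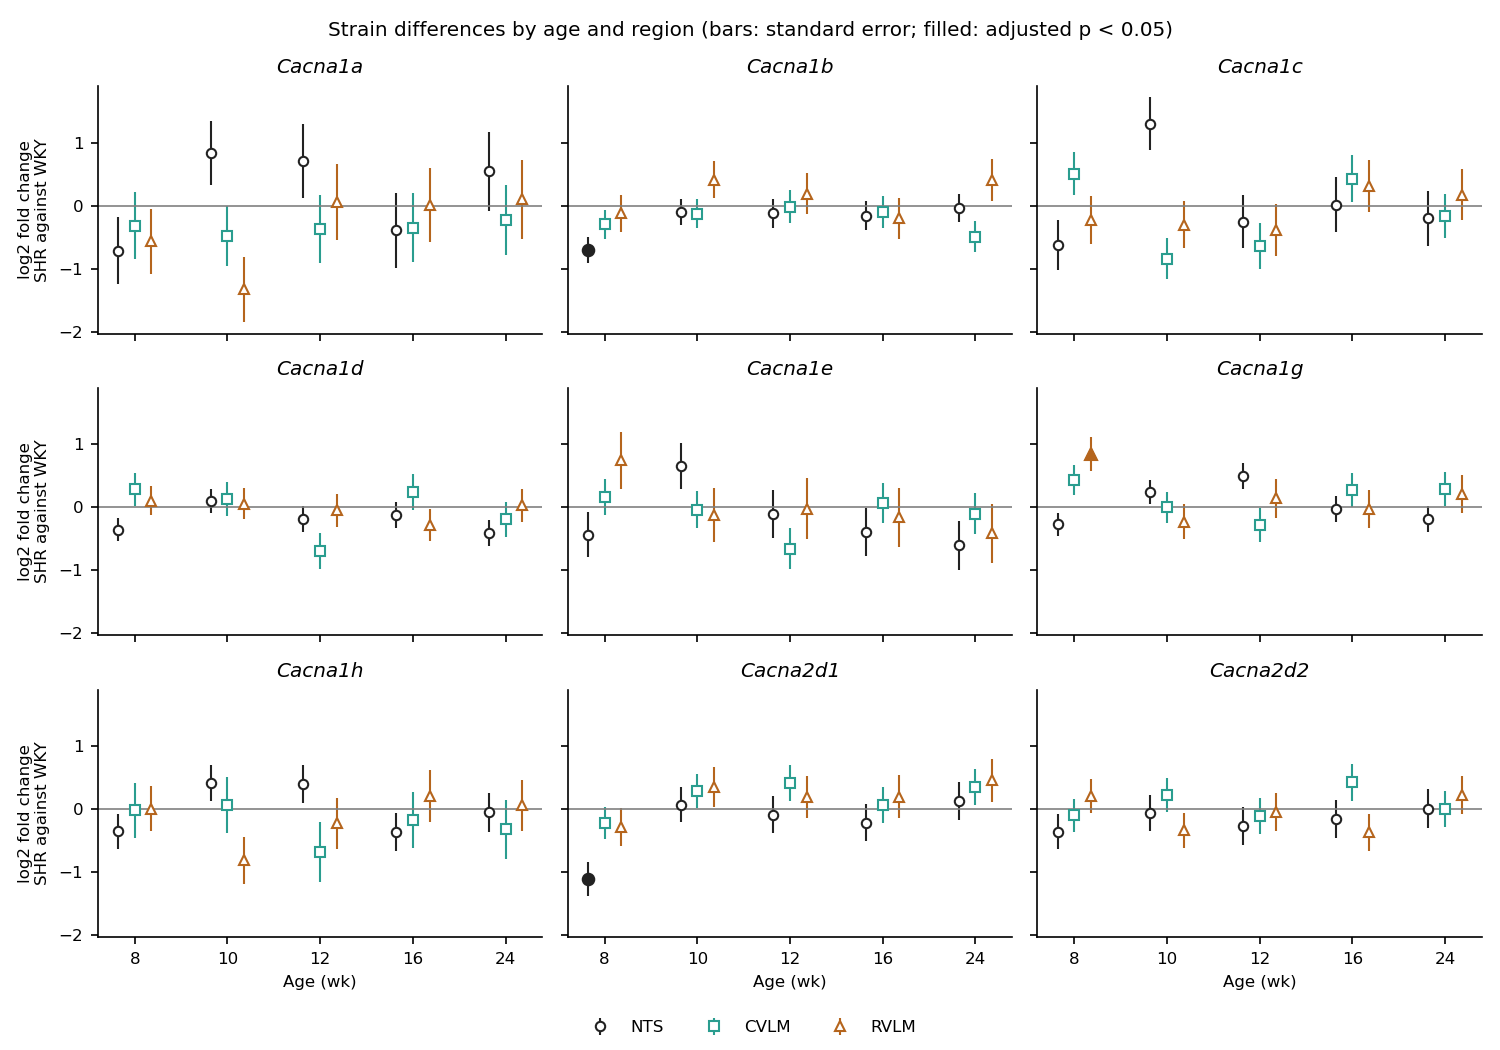
Log2 fold change of SHR against WKY at each age (bars, SE) for the 9 tested subunits in the NTS, CVLM and RVLM, with filled points for an adjusted p below 0.05. The 3 filled points are Cacna2d1 and Cacna1b in the NTS and Cacna1g in the RVLM, all at 8 wk.

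Several subunits showed wide differences that did not pass. The widest of the 135 values was that of Cacna1a in the RVLM at 10 wk, with 1.66, 3.98, 0.612 and 1.14 CPM in WKY rats and 0.959, 0.622, 0.373, 1.53 and 0.150 CPM in SHRs. The groups overlapped in a gene with 2 to 55 reads in these libraries, and the log2 fold change was -1.33 (SE 0.52, adjusted p = 0.322 in edgeR). Cacna1h there had a log2 fold change of -0.81 (SE 0.38, adjusted p = 0.551). Cacna1c in the NTS at 10 wk stood at 0.566, 0.174, 1.77 and 0.416 CPM in WKY rats and at 1.08, 2.31, 1.63, 1.23 and 2.24 CPM in SHRs, with an SHR to WKY ratio that edgeR did not call (adjusted p = 0.0670, SE 0.42) in a gene with 3 to 43 reads per NTS library. It passed with DESeq2 (log2 fold change 1.29, adjusted p = 0.0433) and with edgeR once the number 2 libraries outside 10 wk were left out (adjusted p = 0.0496). In the CVLM at the same age it went the other way, with 1.44, 1.99, 1.46 and 1.72 CPM in WKY rats and 1.15, 1.02, 1.01, 0.750 and 0.634 CPM in SHRs. These groups did not overlap, the log2 fold change was -0.84 (SE 0.32, adjusted p = 0.220), and 3.18% of all genes were called in the CVLM at 10 wk. Cacna2d2 in the RVLM at 16 wk was the other tested value without overlap, at 18.7, 18.7 and 17.4 CPM in WKY rats and from 9.73 through a median of 14.3 to 17.3 CPM in the 6 SHRs. Cacna2d2 had a log2 fold change of -0.37 there (SE 0.29, adjusted p = 1.00), and 1.65% of all genes were called in the RVLM at 16 wk. The untested Cacna1i in the RVLM at 24 wk had all 6 SHRs above the 3 WKY rats. The share of all genes whose strains did not overlap is not given here. These separations are therefore not shown to be unusual. Standard errors of the 135 values ran from 0.18 to 0.63 with a median of 0.30 on the log2 scale.

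Averaged over the 5 ages, 0 of 9 subunits differed between the strains in any region, where 11.2%, 12.3% and 10.8% of all genes did in the NTS, CVLM and RVLM. At an unadjusted p below 0.05 there were 2 in the NTS and 0 in the CVLM and RVLM, and DESeq2 called 0 in each. The log2 fold changes ran from -0.24 to 0.20 in the NTS, from -0.35 to 0.18 in the CVLM and from -0.35 to 0.19 in the RVLM, with standard errors of 0.09 to 0.26. The 2 NTS values were those of Cacna1b (-0.23, SE 0.10, adjusted p = 0.155) and Cacna1d (-0.19, SE 0.09, adjusted p = 0.187). The interaction test detected no change of the strain difference with age for any of the 9 subunits (edgeR and DESeq2, 0 called). With edgeR it called 0.0145%, 0.0224% and 0.00746% of all genes in the NTS, CVLM and RVLM. Unadjusted, 2 subunits in the NTS (Cacna2d1 and Cacna1c), 1 in the CVLM (Cacna1c) and 0 in the RVLM were below 0.05, with adjusted p-values of 0.386, 0.389 and 0.365. The 8 wk calls are therefore not shown to differ from the other ages.

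Change with age was tested within each strain between ages other than 10 wk, whose rats all carry the number 2. From 8 to 24 wk in SHRs 0 of 9 subunits were called in any region by edgeR or DESeq2, beside 0.232%, 0.649% and 0.358% of all genes, and 0, 0 and 2 were below an unadjusted 0.05. The 2 were Cacna1b (0.61, SE 0.28, adjusted p = 0.627) and Cacna1c (0.76, SE 0.36, adjusted p = 0.632) in the RVLM. From 12 to 24 wk in WKY rats, 3 against 3, 0 were called by either tool, beside 0%, 0.0447% and 0% of all genes, with 1, 1 and 0 below an unadjusted 0.05. The widest of these was Cacna1b in the CVLM, at 0.79 (SE 0.30, adjusted p = 0.307).

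The other subunits of the same channels gave a mixed picture. All 4 β subunits, the cytoplasmic partners that carry the pore to the membrane, were tested, and 3 of them had more RNA in the NTS than in the RVLM in each strain. Cacnb3 had the widest difference, at 2.50 in WKY rats (SE 0.14, adjusted p = 2.16e-30) and 1.93 in SHRs (SE 0.11, adjusted p = 4.11e-30), with region medians of 41.3, 17.5 and 8.24 CPM in the NTS, CVLM and RVLM. Cacnb4 was higher by 0.78 and 0.70 and Cacnb2 by 0.48 and 0.39, while the values of Cacnb1, 0.17 and 0.10, did not pass (adjusted p = 0.145 and 0.311). For the NTS against the RVLM, 64.2% of all genes in WKY rats and 64.4% in SHRs were called, in either direction. The α2δ subunit Cacna2d3 ran opposite to Cacna2d1. The log2 fold change of the NTS over the RVLM was -1.15 in WKY rats and -0.94 in SHRs (adjusted p = 1.26e-14 and 5.27e-15), with medians of 14.2, 26.5 and 27.4 CPM in the NTS, CVLM and RVLM. The retinal and muscle pores Cacna1f and Cacna1s and the α2δ subunit Cacna2d4 did not reach the filter, with medians of at most 1, 0 and 2 reads. No β subunit was called, nor was Cacna2d3, between the strains at 8 wk or over the ages. Of the 8 γ subunits 4 were tested, and Cacng5, a member of the branch that accompanies AMPA receptors, was lower in the NTS of SHRs at every age, at -1.38 at 8 wk (SE 0.20, adjusted p = 5.44e-06) and -1.29 over the ages (SE 0.10, adjusted p = 1.73e-14). Over the ages Cacng5 was also lower by edgeR in the CVLM (-0.70, adjusted p = 0.000222) and the RVLM (-0.69, adjusted p = 0.0132). Cacng3, another γ subunit, was lower in the NTS over the ages (-0.41, adjusted p = 7.14e-05). Of 15 tested rows for channel partners and regulators, 2 were higher and 1 lower in the NTS of SHRs over the ages, beside 11.2% of all genes called. Among the higher was Rims1, the active-zone scaffold that binds presynaptic channels, at 0.56 (SE 0.11, adjusted p = 0.00014 in edgeR). Rims1 was also higher over the ages by edgeR in the CVLM (0.40, adjusted p = 0.00103) and the RVLM (0.30, adjusted p = 0.0427).

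Over the 30 group means of log2 CPM (region, strain and age), the profiles of Cacna1d and Cacna1h had a Pearson correlation of 0.91, and those of Cacna1b and Cacna2d1 one of 0.88. Cacna1d and Cacna2d1 had one of -0.26. The genes with profiles most like that of Cacna2d1 were Fam169a, Pkia and Amigo2 (0.97, 0.96 and 0.96). Those nearest to Cacna1b were Impact, Pum2 and Gad1, the last of which encodes a GABA-synthesizing enzyme (0.94, 0.93 and 0.93). For Cacna1g they were Ntrk2, Spon1 and Bbs1 (0.95, 0.95 and 0.93), for Cacna1h they were Gpr83, Rab3b and Cacna1d (0.93, 0.92 and 0.91), and for Cacna1d they were Bcat2, Rab3b and Vezt (0.94, 0.94 and 0.92). Rgs9 led the list for Cacna1e (0.95) and Ece2 that for Cacna2d2 (0.89). For Cacna1c and Cacna1a the highest values were 0.69 (Lrp1) and 0.78 (Ube2q1). All points share the same rats, libraries and 3 punched regions, so these values are a description with no test.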

How the data were processed

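Bulk RNA-seq was made from 3 medullary regions of 46 rats. The authors aligned paired-end reads to the rn6 build with STAR and deposited expected counts per gene from RSEM, 1 table per region. Their methods name a ComBat_seq batch step, and whether the deposited tables include it is not given in the sources used here. About 5.02%, 4.95% and 4.88% of the NTS, CVLM and RVLM values were not whole, and all were rounded. Groups came from the sample titles. Each replicate was a separate rat.

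Strain and age groups were fitted per region with edgeR 4.0.16 (R 4.3.3; TMM scaling, robust quasi-likelihood test) on genes whose highest rlog value (DESeq2 1.42.0) reached 3.5. Regions were fitted over all libraries with the rat as a block. Calls used a Benjamini-Hochberg adjusted p below 0.05 over all genes tested. DESeq2, limma 3.58.1 voom, other scaling, no filter, the library number as a term and each rat left out were alternatives. The fits were tested on simulated data. Depth was 5904570 to 17889406 counts. No pair of libraries of a group (270 pairs) agreed within sampling noise. Members and lists were chosen with earlier results of these data known. All 10 members are named, with, per list, up to 3 called genes of the largest change, the β and remaining α subunits, and the 3 genes most like each member. No transcript lengths or protein sequences were used here.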

Additional observations from a re-analysis of the deposited data

Results flagged for a closer look

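Groups of 4 to 6 libraries (1 subunit in 1 region, strain and age) were screened by Dixon's criterion. The WKY groups of 12, 16 and 24 wk, with 3 rats each, were left out. Of 210 groups, 13 held a library far from the rest, which chance gives in about 1 of 20 groups (10.5 here). In the NTS, Cacna1a stood at 3.81 CPM in SHR replicate 6 of 12 wk (others 1.04 to 1.87), Cacna1d at 3.65 in SHR replicate 1 of 10 wk (4.25 to 4.49), and Cacna1g at 5.99 in WKY replicate 5 of 8 wk (9.89 to 11.2). Cacna1h stood there at 1.90 CPM in SHR replicate 3 of 8 wk (3.82 to 4.60) and at 6.54 in SHR replicate 2 of 16 wk (3.80 to 4.16).

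In the CVLM, Cacna1a stood at 2.27 CPM in SHR replicate 3 of 16 wk (others 0.697 to 1.10) and Cacna1g at 1.50 in SHR replicate 6 of 12 wk (2.51 to 3.04). SHR replicate 5 of 8 wk, whose age label reads 10 wk, was far above the others for both Cacna1h, at 3.09 CPM (0.783 to 1.24), and Cacna2d1, at 42.9 CPM (18.9 to 24.7). At 10 wk the SHR values of Cacna2d1 in the CVLM ran from 37.2 to 59.4 CPM. Cacna1h ran from 0.382 to 2.32 CPM in the number 2 SHR libraries of the CVLM, which include all those of 10 wk. SHR replicate 5 of 8 wk carried the number 1, and its title and library name read 8 wk.

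In the RVLM, Cacna1c stood at 0.457 CPM in SHR replicate 1 of 12 wk (others 1.42 to 1.96) and at 3.96 in SHR replicate 4 of 24 wk (1.76 to 2.38). Cacna1e stood at 2.43 CPM in SHR replicate 2 of 10 wk (0.876 to 1.27) and at 0.595 in SHR replicate 5 of 16 wk (1.51 to 2.05).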

How the results depend on the processing

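Of the 42 regional calls, 37 held under all 6 alternatives, and of 252 values 245 kept the call, 7 lost it and 0 reversed. The number of subunits called between strains over the ages in the NTS, 2, was 0 with the library number as a term or each age fitted alone, and 1 without the low-count filter (Cacna2d1), without number 2 libraries outside 10 wk (Cacna1c at 10 wk), or at an adjusted p of at most 0.01 with a change of at least 2-fold. It ran from 0 to 3 with 1 rat left out. In the RVLM the count of 1 was 0 under these 5 settings and with the replicate block, and 0 to 1 with 1 rat left out. The other counts (22 of 24) held. Those between regions within a strain stayed within 1.5 times, and the rest were 0 and stayed at 0, where such a limit says little.

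Replicate numbers were not treated as pairs, since not every pair correlated above 0.1: deviations correlated from -0.373 to 0.585 over 54 pairs (median 0.169), above 0.1 in 33, so an effect shared by a number is not shown to be absent. With the replicate block the 8 wk call held for Cacna2d1 (adjusted p = 0.0121) and Cacna1b (-0.70, adjusted p = 0.0197) and was lost for Cacna1g (0.94, adjusted p = 0.0757), and the count in the NTS stayed at 2. Low counts limit Cacna1a, Cacna1c and Cacna1i most.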
